A study of Mus musculus with 5 samples.

Results

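Mouse chromosome 19, the shortest autosome, carried 977 of the 22756 CTCF peak intervals called in NIH3T3 fibroblasts. They are every interval on chromosome 19, a part chosen with earlier results known, and no measured value decided which intervals were included. They made up 4.29% of the list, and the 18 other autosomes together held 21577. The CTCF label was checked against the CTCF motif in promoter sequence, as given below.

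The cells were NIH3T3, a mouse embryonic fibroblast line, carrying stable H2B-mCherry, the rtTA3G transactivator and CDX2, a homeobox transcription factor, under the doxycycline-responsive TRE3G promoter. All 5 libraries share these 3 constructs, and the labels give a time of 6 h for each. They are 2 CTCF precipitations with doxycycline (CTCF_Dox), 2 without doxycycline (CTCF_noDox) and 1 input without doxycycline (Input_noDox). The doxycycline concentration appears in the labels as 500 ng/µL, which nothing here can check, and whether the line is 1 clone is not said. The intervals analysed had been merged over both conditions, with no height, score or sample name, so the effect of CDX2 induction was not tested, the depth behind each peak is unknown and no spread between replicates can be given.

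CTCF is a zinc finger protein that binds a long, directional DNA motif. It halts cohesin as cohesin extrudes chromatin loops, so its sites often stand at loop anchors and at the borders of topological domains, and they can insulate a promoter from enhancers beyond them. Many of its sites lie between genes and in introns, and a smaller group lies at promoters, where CTCF can hold a promoter near distant enhancers.

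The sequences below show the CTCF motif at gene starts of chromosome 19. The 250 bases before and 50 bases after each gene start were read from RefSeq (GRCm38.p6, the assembly behind mm10) and searched for a motif core. The core is AGAGGGC or any of its variants AGATGGC and AGGGGGC as well as AGGTGGC, on either strand, where CC ends 3 bases before it. Of the 863 chromosome 19 genes with such an entry, 32 held the core (3.71%), beside 851 of 24885 (3.42%) on 17 other autosomes. Where a CTCF peak midpoint lay inside the window, the core was present in 10 of 29 promoters (34.5%, 95% interval 17.9 to 54.3%). Where none did, it was present in 22 of 834 (2.64%). On the other autosomes the shares were 277 of 702 (39.5%) and 574 of 24183 (2.37%). Each of the 10 cores on chromosome 19 lay inside the peak itself. A match describes these letters and does not show a bound site.

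Of the protein-coding genes, 6 had a promoter with both a peak midpoint and a core, and they are shown because each pairs a called peak with the motif beside a start that RefSeq lists for the gene. The listed start can lie inside the annotated gene: by the outermost annotated end, the nearest peak is 1244 bp away for Plcb3 and 1027 bp away for Noc3l. They are written 5′ to 3′ in the direction of the gene, with the motif match in capitals and its neighbours in lower case. The first 3 lines give 120 bases in which no gene is annotated.
Ndufv1: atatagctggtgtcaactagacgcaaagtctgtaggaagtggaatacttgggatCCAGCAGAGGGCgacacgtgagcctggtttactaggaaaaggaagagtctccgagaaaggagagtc
D030056L22Rik: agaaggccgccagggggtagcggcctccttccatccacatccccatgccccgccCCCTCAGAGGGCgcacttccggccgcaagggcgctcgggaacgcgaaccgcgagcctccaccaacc
Dnmbp: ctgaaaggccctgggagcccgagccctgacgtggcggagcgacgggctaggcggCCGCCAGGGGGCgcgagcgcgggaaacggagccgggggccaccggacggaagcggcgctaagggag
The other 3 are cut to 30 bases because a gene is annotated over them.
Noc3l: ggaccagagCCACCAGGGGGCgcacgcacc
Plcb3: ccgccccaaCCGCGAGGGGGCgccgccgtg
Tctn3: ctgccagctGCCATCTAGCGGcgggatcag

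Ndufv1 encodes a subunit of respiratory complex I. Its stretch is chr19:4012873-4012992 on the minus strand, the motif ends 172 bp before the gene start, and the peak (chr19:4012578-4013093, 516 bp) is centred 97 bp from it. D030056L22Rik lies on the plus strand, with the stretch at chr19:18713036-18713155 and the peak midpoint 49 bp from the motif. Dnmbp, an exchange factor for CDC42, has its stretch at chr19:43940240-43940359 on the minus strand, 56 bp between motif and peak midpoint. Noc3l acts in ribosome assembly in the nucleolus, and Tctn3 at the base of the cilium. In Noc3l (chr19:38819278-38819307, minus strand), Plcb3 (chr19:6969877-6969906, minus strand) and Tctn3 (chr19:40612405-40612434, minus strand) the motif was 9, 4 and 6 bp from the peak midpoint. Tctn3 is the exception in direction: its capitals read the motif on the opposite strand, while the other 5 read it along the gene. Plcb3, a phospholipase C, also stands out for crowding below. A further 14 protein-coding promoters held a peak midpoint without this core, among them Sufu, Grk5 and Hif1an. Another of the 14, Entpd1, shares its peak with Tctn3, so the motif printed for Tctn3 lies in that same peak and only crosses the edge of the Entpd1 window. The 29 promoters with a peak held 28 distinct peaks.

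Per unit length chromosome 19 was the second most densely bound autosome. It had 16.8 peaks per Mb over a span of 58.3 Mb, after chromosome 11 with 21.2. The other 18 autosomes pooled had 9.20, with a range from 5.20 on chromosome 14 and a median of 8.22. Peaks covered 0.506% of the chromosome 19 span and 0.263% of the others. In a quasi-Poisson fit of peak counts over windows of 1 Mb (n = 2413), in which the spread between windows sets the error, chromosome 19 had 1.82 times the density of the other autosomes (95% interval 1.47 to 2.26, adjusted p = 4.3e-06). A difference was common in this comparison: 8 of 19 autosomes passed the adjusted threshold of 0.05 against the rest (42.1%), 3 above and 5 below. Windows are not replicates, and neighbouring windows are not independent.

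Chromosome 19 is also rich in genes, with 12.1 protein-coding genes per Mb beside 8.47 on the others, next after chromosomes 7 and 11. The order by genes was not the order by peaks: chromosome 7, with 14.2 genes per Mb, had only 10.1 peaks per Mb. Chromosome 19 had 1.39 peaks per protein-coding gene, chromosome 7 had 0.713, chromosome 11 had 1.58 and the pooled others had 1.09. With the number of protein-coding genes in each window as a term, the density ratio of chromosome 19 was 1.41 (1.23 to 1.62, n = 2413, adjusted p = 1.46e-05). It then ranked next after chromosomes 11 and 15, and again 8 of 19 autosomes passed (42.1%), 5 above and 3 below.

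**Figure D1:**
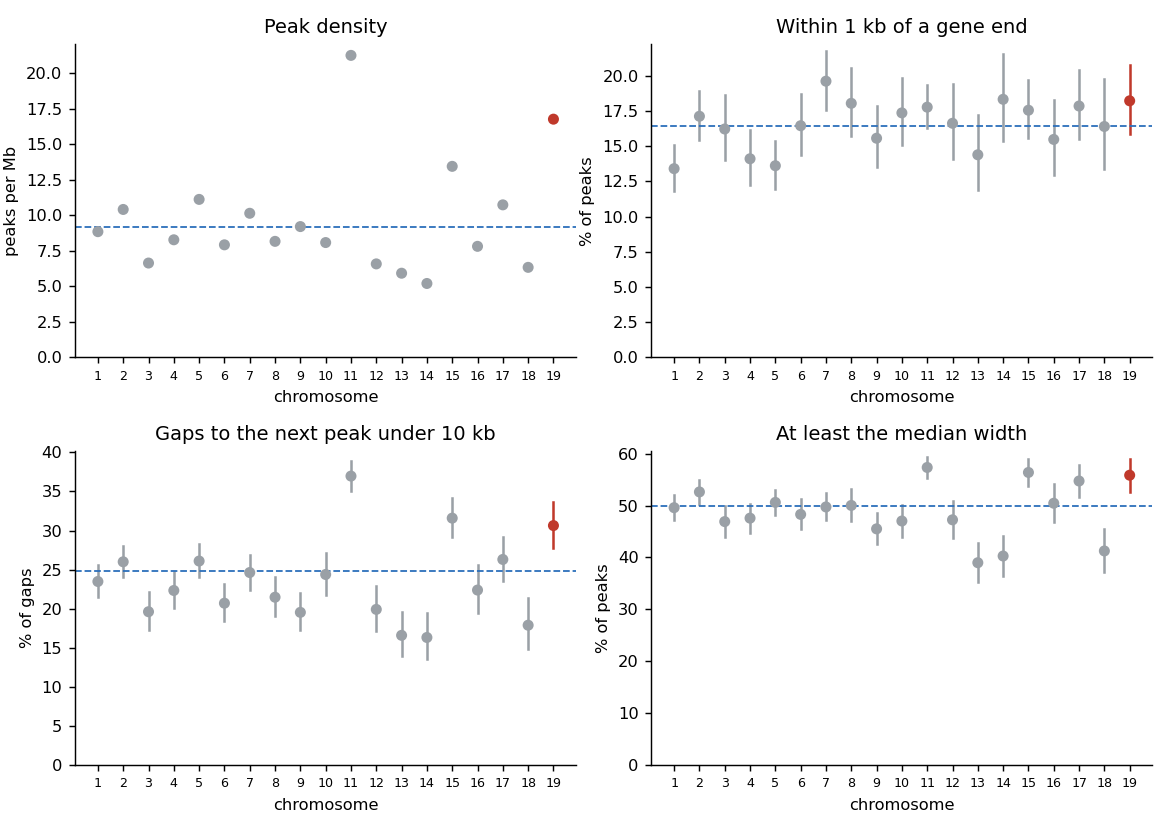
Each panel plots 1 value per autosome, with chromosome 19 in red and a dashed line at the value of the 18 other autosomes pooled; vertical bars on the shares are 95% exact binomial intervals, which cover counting only. Chromosome 19 stood at 16.8 peaks per Mb against 9.20, at 18.2% against 16.4% for gene ends, at 30.6% against 24.8% for close gaps and at 55.9% against 50.0% for widths of at least the autosomal median, and chromosome 11 was highest in density, close gaps and width.

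Along the chromosome the peaks were far from even. A 1 Mb window held a median of 12 peaks (quartiles 5 and 22), beside 6 (2 and 13) on the other autosomes. The highest held 63 and 1 window, from 51 to 52 Mb, held none. Windows with at least 30 peaks were 10 of 59 (16.9%), beside 118 of 2354 (5.01%), while windows with 5 or fewer were 16 (27.1%) beside 48.1%. The 3 fullest windows held 171 peaks (17.5%) and the 10 fullest held 433 (44.3%).

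Those full windows stood in a few stretches, whose borders were placed after the counts were seen and are given without a test. From 3 to 7 Mb there were 202 peaks, 20.7% of all on 6.86% of the length, or 50.5 per Mb. From 41 to 48 Mb there were 231, 23.6% of all on 12% of the length, or 33.0 per Mb. A lone full window at 10 to 11 Mb, which holds Fads3 and the Ms4a10 and Ms4a15 genes, had 48. Between these, 12 to 24 Mb had 91 peaks, 7.58 per Mb. The poorest stretch was 48 to 53 Mb, with 13 peaks, 2.60 per Mb, and only 4 protein-coding genes. The 2 rich stretches differed in their genes: 3 to 7 Mb had 164 protein-coding genes and 1.23 peaks per gene, whereas 41 to 48 Mb had 118 and 1.96.

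Across the 59 windows, peak number and protein-coding gene number moved together, with Pearson's r = 0.781 and Spearman's rho = 0.780. On the other autosomes r was 0.717 and rho 0.723 over 2354 windows. These are descriptions over windows that share 1 peak list. Windows with olfactory receptor genes, from 11 to 14 Mb, held few peaks for their gene number: 10, 16 and 3 peaks with 32, 36 and 33 genes. The first of these held few olfactory receptor genes and most genes of the Ms4a family, so its low count is not particular to olfactory receptor genes. Without the windows that hold any olfactory receptor gene, r was 0.867 and rho 0.876 (n = 56), a removal not made on the other autosomes. At like gene number, windows of chromosome 19 with 10 to 19 genes held a median of 24 peaks beside 14 elsewhere, and those with 5 to 9 genes held 11 beside 8. The order turned for 20 to 39 genes, at 16.5 in 6 windows beside 20.

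**Figure D2:**
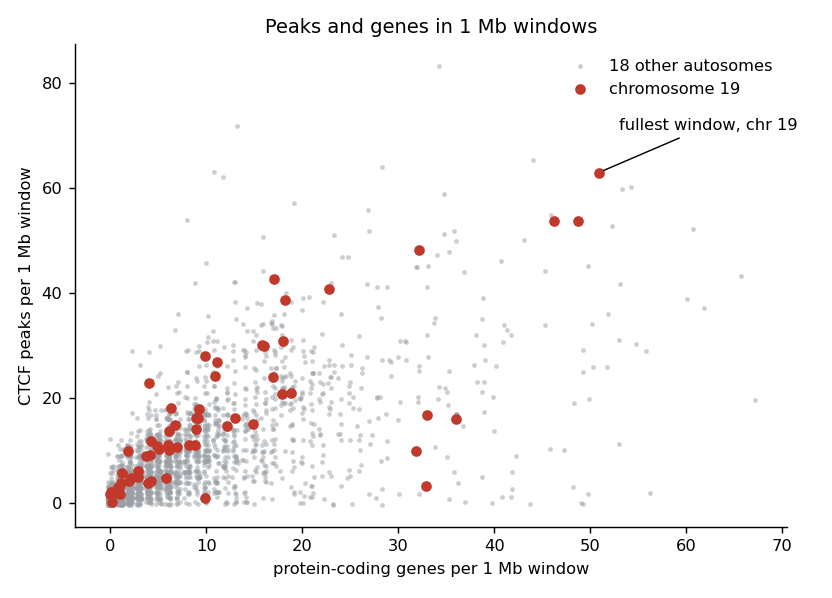
Each point is a 1 Mb window, placed by its number of protein-coding genes (horizontal) and of CTCF peaks (vertical), with small shifts added to separate equal values; chromosome 19 is red and the 18 other autosomes are grey. The fullest window of chromosome 19, with 51 genes and 63 peaks, stands at the upper right, with 2 neighbours of 54 peaks beside it, while 4 of the 5 windows with 32 to 36 genes lie low, at 3 to 17 peaks.

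The window from 5 to 6 Mb was the fullest of chromosome 19, with 63 peaks and 51 protein-coding genes. Its neighbours, 4 to 5 Mb and 6 to 7 Mb, held 54 each, with 49 and 46 genes. Over all 2413 autosomal windows 6 held 63 or more, and the 5 others were on chromosome 11. Among the 42 windows of other autosomes with 41 to 61 genes the median was 29.5 peaks (range 0 to 65), and 1 of them held at least 63. The 5 to 6 Mb window was singled out for its crowding, so its standing in these comparisons is a description, not a test. Within it, 19 peaks lay at most 1 kb from a gene end, 31 elsewhere in gene bodies and 13 outside genes. From 1 midpoint to the next the median was 11 kb, and 29 of 62 were under 10 kb (46.8%). Peaks there had a median width of 297 bp, and 13 of the 63 reached 500 bp.

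Of the 51 genes, 45 carried a peak inside or up to 10 kb away, 21 carried 3 or more, and 17 carried a gene-end peak, that is, 1 with its midpoint at most 1 kb from an end. Neighbouring genes share peaks at this spacing, so these counts are not independent. Pacs1, a sorting protein of the trans-Golgi network and at 139 kb a long gene for this window, had 6. Efemp2, an elastic fibre protein, had 5. Cfl1, which encodes the actin-severing protein cofilin, Cnih2, an auxiliary subunit of AMPA receptors, and Mus81, a structure-specific endonuclease, had 4 each. A run of 4 peaks, each under 10 kb from the next, reached from the 3′ end of Efemp2 across Mus81 into Cfl1 (chr19:5481429-5492467). Its Mus81 member was 834 bp wide. Another run of 4 lay wholly within the 7.07 kb of Rin1, a RAS effector.

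The longest run of the chromosome lay here too. It had 6 peaks in 23.1 kb (chr19:5780279-5803416) around Malat1, the gene of an abundant nuclear long non-coding RNA. Malat1 had 4 peaks within 10 kb, none in its body and 1 centred 617 bp from its start. This run also held the widest interval of chromosome 19, 1127 bp at chr19:5786303-5787429, outside any annotated gene. Neat1, which encodes the RNA scaffold of paraspeckles, had 2 peaks within 10 kb and none in its body.

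Even this window had open stretches. Between the peaks centred at 5589376 and 5669166 lay 79.8 kb without a peak. That gap held Sipa1, with 1 peak within 10 kb, and 3 genes with none: Rnaseh2c, the histone acetyltransferase gene Kat5 and Rela, which encodes the p65 subunit of NF-κB. The other genes of the window without a peak within 10 kb were Tsga10ip, 1700020D05Rik and Dpf2, a subunit of the BAF remodelling complex. Fosl1, an AP-1 gene, had 2 peaks. A second gap of 80.8 kb ran from within Pacs1 to Sf3b2, and another of 60.6 kb crossed Sart1 and Tsga10ip.

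The share of peaks at gene ends was not shown to differ between chromosome 19 and the other autosomes. Of the 977 peaks, 178 were gene-end peaks (18.2%, 95% interval 15.8 to 20.8%), against 16.4% elsewhere. The range over the other autosomes was 13.4% on chromosome 1 to 19.6% on chromosome 7. The odds ratio in a quasi-binomial fit over windows was 1.13 (0.943 to 1.36, adjusted p = 0.509). In that comparison 3 of 19 autosomes passed (15.8%), 1 above and 2 below. In the same quasi-binomial fit with gene ends within 2.5 kb the ratio was 1.28 (adjusted p = 0.0124), and only this alternative changed the call. The ratio fell just below 1 with gene ends within 500 bp (0.996) and with gene number as a term (0.995). Without 4 to 7 Mb it was 0.898. None of these lower ratios was called.

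More of chromosome 19 lies near a gene end in the first place, 7.69% of its span beside 6.34%. Relative to that length, gene-end peaks were 2.37 times as dense as an even spread would give, beside 2.59 on the other autosomes. A further 513 peaks (52.5%, beside 48.6%) lay elsewhere in gene bodies. Outside genes lay 286 (29.3%, 26.4 to 32.2%, beside 35.0%), the lowest share of the 19 autosomes. Chromosome 11 was close, at 30.6% (28.8 to 32.4%). The body and outside shares were not set against the length that lies inside genes. From 4 to 7 Mb the gene-end share was 33.3% (26.3 to 40.9%), with 19.7% of that stretch near a gene end. In the 41 to 48 Mb stretch it was 15.2% (10.8 to 20.4%), with 10.1% near a gene end.

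Of the 178 gene-end peaks, 132 were at a protein-coding gene and 46 at other genes only, and 38 were at the ends of more than 1 gene. Strand was taken from the RefSeq promoter entries, which were used for chromosome 19 and 17 other autosomes. An entry gave strand for 593 of the 705 protein-coding genes of chromosome 19 and 15864 of 19855 on the 18 other autosomes. Genes without strand, all of chromosome 18 among them, were left out, so counts at starts and 3′ ends miss some gene ends. With the start taken as the outermost annotated end of the gene, 67 peaks (6.86%, 5.35 to 8.63%) lay within 1 kb of a protein-coding gene start, beside 5.76%. By the starts listed with the promoter entries it was 86 (8.80%, 7.10 to 10.8%), beside 6.24%. At the 3′ end the count was 43 (4.4%, 3.20 to 5.88%), beside 3.48%, and 7 peaks were near both a start and a 3′ end. Seen from the genes, 136 of 705 protein-coding genes had a peak at an end (19.3%), beside 12.4% elsewhere, and 458 had 1 inside or up to 10 kb away (65.0%), beside 52.9%.

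The side of the start on which these peaks lay depended on how the start was taken. By the outermost annotated end, 28 midpoints of chromosome 19 lay in the 1 kb before a protein-coding start and 39 in the 1 kb after it, so 58.2% (45.5 to 70.2%) lay after, beside 37.4% (34.7 to 40.2%) on the other 17 autosomes. By the starts listed with the promoter entries, 51 lay before and 35 after, so the larger side turned: 40.7% (30.2 to 51.8%) lay after, beside 29.95% (27.5 to 32.5%), and chromosome 16 was higher at 41.2%. Sfxn3, Ankrd13d and Ifit2, named after their values were seen, show the shift: their peaks lay 781, 697 and 23 bp after the outermost end but 22, 219 and 121 bp before the listed start. In the 500 bp just before a listed start stood 33 peaks, 3.38% (2.34 to 4.71%), beside 3.33%. The split was noticed in the data and was not tested. Distances from a start given for single genes, apart from the printed promoters, are from the outermost annotated end.

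**Figure D3:**
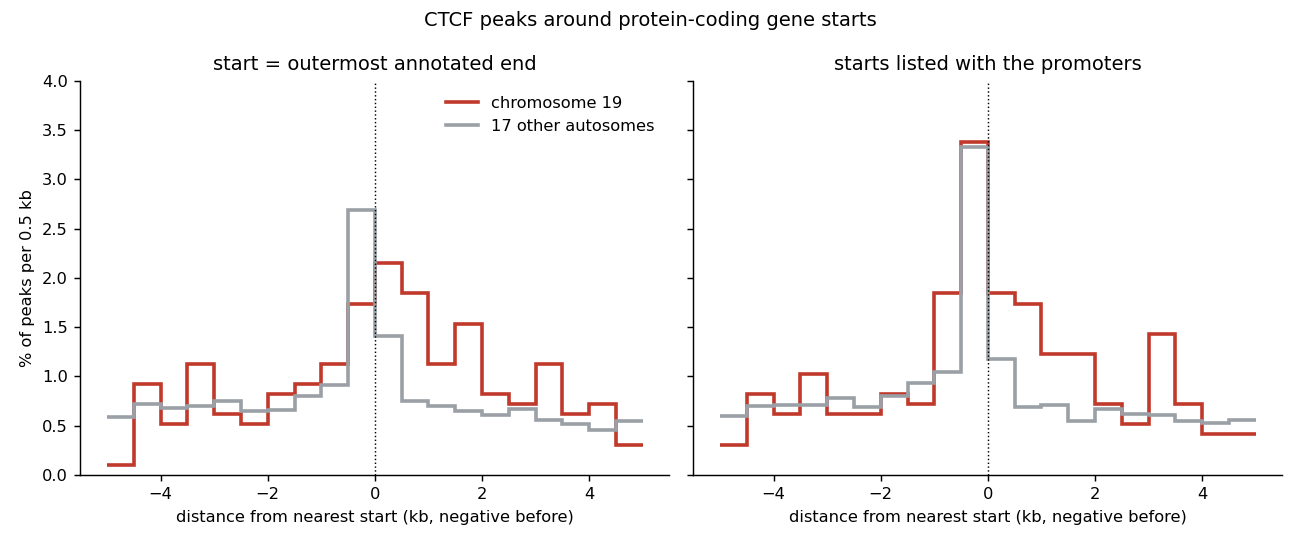
The share of peaks per 0.5 kb bin is plotted against distance from the nearest protein-coding gene start, negative before the gene, for chromosome 19 (red, 977 peaks) and 17 other autosomes (grey), with the start as the outermost annotated end (left) or as listed with the promoter entries (right). On the left the red line is highest just after the start, at 2.15%. On the right both lines are highest just before it, at 3.38% and 3.33%. Only genes with known strand were used.

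Neighbouring peaks stood closer together on chromosome 19. The median distance between midpoints was 22.7 kb (quartiles 7.39 and 62.3 kb), against 33.2 kb on the other autosomes, where medians ran from 16.9 kb on chromosome 11 to 62.5 kb on chromosome 13. Of 976 gaps, 299 were under 10 kb (30.6%, 27.8 to 33.6%), against 24.8%. The quasi-binomial odds ratio over windows was 1.34 (1.14 to 1.58, adjusted p = 0.00138), next after chromosomes 11 and 15. Here 11 of 19 autosomes passed (57.9%), 3 above and 8 below. Without 4 to 7 Mb the quasi-binomial ratio was 1.15 (adjusted p = 0.230), and with the number of peaks in each window as a term it was 0.955 (adjusted p = 0.769): no difference was then called.

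Of the 977 peaks, 480 had no neighbour under 10 kb away. At the other end, 24 runs of 4 or more peaks held 103 peaks (10.5%, beside 8.68% on the other autosomes), and 10 of the runs lay at 3 to 7 Mb and 10 at 41 to 48 Mb. Runs of 5 peaks stood at Gstp3 (14.6 kb), between Atg2a and Ehd1 (16.5 kb), within Pdzd7 (7.16 kb), around Kazald1 (8.46 kb) and at chr19:45215180-45224422 (9.24 kb). The Atg2a run had 3 gene-end peaks and the Pdzd7 run had none, so runs were not of 1 kind.

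**Figure D4:**
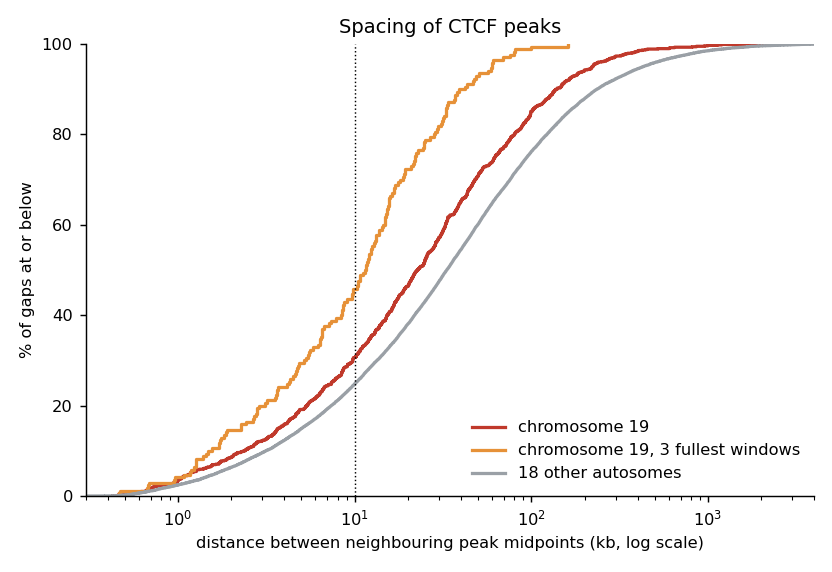
Cumulative share of gaps (vertical) at or below a distance between neighbouring peak midpoints (horizontal, kb, log scale) for chromosome 19 (red), its 3 fullest neighbouring windows (orange) and the 18 other autosomes (grey), with a dotted line at 10 kb. At 10 kb the orange line stands at 45.9%, the red at 30.6% and the grey at 24.8%.

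The longest stretch without a peak was 2.48 Mb (chr19:50423120-52904366). It began within Sorcs1, a sorting receptor gene of neurons, and held Ins1, 1 of the insulin genes of the mouse. The next, 1.19 Mb at chr19:17364956-18557898, held Rfk and Pcsk5. A stretch of 1.13 Mb (chr19:39098919-40225691) held 12 Cyp2c genes of drug and lipid oxidation and ended in Pdlim1. Another of 0.999 Mb between Rorb and Anxa1 held no protein-coding gene, and the fifth, 0.955 Mb, held Tle4, a transcriptional corepressor. Near-identical gene copies such as the Cyp2c family can lose reads to each other, and how such reads were treated is not given in the sources used here, so an absence of peaks there is uncertain.

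Peaks of chromosome 19 were slightly wider. The median was 274 bp (quartiles 225 and 347, range 175 to 1127 bp), beside 262 bp on the other autosomes. At least as wide as the autosomal median were 546 (55.9%, beside 50.0%), and 59 reached 500 bp (6.04%, beside 3.96%). The quasi-binomial odds ratio for this width class was 1.27 (1.09 to 1.47, adjusted p = 0.00763), and 8 of 19 autosomes passed (42.1%), 4 above and 4 below. Refitted quasi-binomially, it was 1.21 without 4 to 7 Mb (adjusted p = 0.0637) and 1.16 with gene number as a term (adjusted p = 0.0883), where the call was lost. Gene-end peaks had a median of 296.5 bp, body peaks 270 bp and peaks outside genes 268 bp. After the interval near Malat1, the widest were 1100 bp outside genes (chr19:42439391-42440490), 1040 bp in Ap5b1 and 1017 bp in Ms4a15. Interval width depends on how neighbouring calls were merged, which is not given in the sources used here.

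By gene, the largest number of body peaks was in Sh3pxd2a, which encodes the podosome and invadopodium scaffold TKS5. It had 12 in 204 kb, within the rich 41 to 48 Mb stretch. Atrnl1 followed with 9 in 522 kb, 1 of them 484 bp from its start. Macrod1, a hydrolase of ADP-ribose marks, and Rbm20, a splicing regulator, had 8 each, and Slit1, an axon guidance ligand, had 7. The genes with 6 were Pdzd7, Sufu, the channel gene Pkd2l1, the Wnt co-receptor gene Lrp5, Crtac1, and the actin regulators Kank1 and Ablim1. Of these, Sufu, the negative regulator of Hedgehog signalling, had a peak midpoint only 28 bp from its start and 9 peaks with its flanks.

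Relative to length, the densest gene among those with at least 5 peaks was Lzts2, with 7 in its body and 10 kb flanks, or 21.9 per 100 kb. Its neighbour Pdzd7 had 15.5 and nearby Kazald1 had 20.6, all near 45 Mb and partly the same peaks. Efemp2, at 5 to 6 Mb, had 17.5. The fatty acid desaturase relative Fads3 had 15.3, the receptor kinase gene Grk2 had 14.9 and Plcb3, whose promoter motif is printed above, had 14.5. In the window from 4 to 5 Mb, Grk2 and Syt12 had 6 peaks each with their flanks, and in that from 6 to 7 Mb Plcb3 had 6 while Cdc42bpg, Atg2a, Ehd1 and Nrxn2 had 5.

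The share of members with a peak varied between gene groups of chromosome 19. The groups were small, were listed with earlier results in view and share some peaks, so the values are descriptions. For reference, 19.3% of the 705 protein-coding genes had a gene-end peak, 65.0% had a peak inside or up to 10 kb away, and the mean was 1.58 peaks.

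A list of 12 genes, mostly of RNA and protein synthesis but with the iron storage gene Fth1 and the non-coding RNA gene Snhg1 in it, had a peak at every member and a gene-end peak at 5. The mitochondrial ribosome gene Mrpl49 and the neighbouring Fau, which encodes a ribosomal protein fused to a ubiquitin-like part, had 4 each, largely the same peaks, and Mrpl11 had 1 at 131 bp from its start. Of 20 genes of cytoskeleton, matrix and signalling, 18 had a peak and 7 had it at an end, with a mean of 2.65. Lrp5 had 7, Efemp2 and Ehd1 had 5, and Cfl1 and Ltbp3 had 4. Rela had none. Fas, a death receptor gene, had 1, and Acta2, the smooth muscle actin gene, had 2.

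Of 16 genes listed for chromatin and genome upkeep, among them the splicing factor gene Sart1, 12 had a peak and 5 had it at an end. Kdm2a, Brms1 and Mus81 had 4 each. Smc3, a core subunit of the cohesin ring that CTCF halts, had 3, the nearest 465 bp from its start. Men1, which encodes menin, had 2. Kat5, Dpf2, Smc5 and Hells had none.

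Developmental regulators had the lowest share of gene-end peaks of these 4 groups, 2 of 25 (8.00%, 0.984 to 26%), although 16 had a peak inside or up to 10 kb away and the mean was 1.64. The 2 were Sufu and Pitx3. The interval of this share includes the 19.3% of all protein-coding genes of chromosome 19. Of these regulators only Ovol1 lies from 3 to 7 Mb, where many genes of the other lists lie. At 5 to 6 Mb, 33.3% of protein-coding genes had a gene-end peak. Whether the group shares follow position was not tested. Fgf8, a signalling ligand of the limb and brain, had 4 peaks within 10 kb and none in its body. Tcf7l2, a Wnt-responsive transcription factor gene, had 3, all in its body, and Pax2, a transcription factor gene of kidney and eye, had 1. Among homeobox genes of the list, Hhex, Vax1 and Emx2 had none, while Pitx3 had 4, Lbx1 had 2, and Tlx1 and Nkx2-3 had 1 each.

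Peaks were sparse in the 3 families of similar gene copies. Among 63 olfactory receptor genes, 5 had a peak within 10 kb and none at an end. Of 15 Cyp2c genes 1 had a peak, and of 21 Ms4a genes 6 did, with Ms4a10 at 4 and Ms4a15 at 3. Leaving these 3 families out, 446 of the 606 remaining protein-coding genes had a peak inside or up to 10 kb away (73.6%) and 135 had 1 at an end (22.3%). No such removal was made on the other autosomes, so these shares have no counterpart there.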

How the data were processed

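CTCF was precipitated with a Drosophila chromatin spike-in and sequenced as 37 nt paired-end reads, per the labels' protocols. The deposited list gives positions only (chromosome, start and end), merged by the authors over both conditions. The submitters' processing notes name STAR, Picard, MACS2, mm10 and dm6; the sources used here give no versions, thresholds or merging rule. Depth per sample is unknown, so intervals cover counting only and p-values the spread between windows. Starts were shifted to count from 1. Genes came from RefSeq GRCm38.p6. Peaks were placed by midpoint. A gene-end peak has its midpoint at most 1 kb from the start or stop of any annotated gene, and the others lie in a body or outside.

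Windows of 1 Mb from 3 Mb onward over 19 autosomes were fitted with statsmodels 0.14.6 (quasi-Poisson for counts, quasi-binomial for shares), each autosome against the other 18. F test p-values were two-sided, adjusted by Benjamini-Hochberg over 19, threshold 0.05. On simulated windows, independent of each other, the density and share fits without added terms approximately recovered a known ratio. Their p-values and intervals were not checked that way. Share intervals are exact (Clopper-Pearson, 95%). Chromosome 18 and genes without a promoter entry were not used for gene starts and 3′ ends by strand.

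Members and gene lists were chosen with earlier results of these data known. Named genes were those with most body peaks (12), most per 100 kb (8 with at least 5 peaks), most in the 3 fullest windows, those at the 5 longest gaps, up to 6 per list, up to 6 promoters with a peak, and 14 fixed genes. Others were named after their values were seen. Some genes that the rule names are not reported here.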

Additional observations from a re-analysis of the deposited data

How the results depend on the processing

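Of 46 alternatives to the 5 tests, 36 kept the direction and the side of the threshold. Density (ratios 1.58 to 2.03) and density given gene number (1.38 to 1.50) kept both under every alternative run. The density interval, at an unchanged 1.82, was 1.54 to 2.15 in 500 kb windows and 1.24 to 2.68 in 5 Mb windows. In 5 Mb windows the quasi-Poisson adjusted p was 0.0341 for density and 0.0220 for density given gene number, closer to the threshold. The odds ratio of the gene-end share was 0.996 at 500 bp, 0.898 without 4 to 7 Mb and 0.995 with gene number as a term, all reversed, and 1.28 at 2.5 kb, which passed. For close gaps the quasi-binomial ratio was 1.34 in 5 Mb windows (adjusted p = 0.0691), 1.15 without 4 to 7 Mb and 0.955 with peak number as a term. For width the quasi-binomial ratio was 1.27 in 5 Mb windows (adjusted p = 0.0766), 1.21 without 4 to 7 Mb and 1.16 with gene number as a term. Windows of 5 Mb are fewer, and the cause of these changes was not tested. Leaving out 4 to 7 Mb or chromosome 11, leaving olfactory receptor genes out of the gene number, and the terms for gene or peak number in the last 3 tests were chosen after seeing the data (14 of the 46). No paired analysis was possible because no peak interval was tied to a sample, and no replicate could be left out for the same reason. Depth is unknown, so a stretch without a listed peak may have lacked reads. The share of start peaks lying after the start, 58.2%, was 40.7% by listed starts, also chosen after seeing the data.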
